A study of Mus musculus with 6 samples.

Results

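Small nucleolar RNAs, small Cajal body RNAs and the Snhg genes were taken from the gene tables of mouse embryonic stem cells and of the endoderm made from them. The set was chosen by name alone: it holds every gene whose symbol begins with Snord, Snora, Scarna or Snhg followed by a digit, 131 of the 24054 genes in the tables. There were 74 Snord genes (box C/D snoRNAs), 36 Snora genes (box H/ACA snoRNAs), 9 Scarna genes (scaRNAs of the Cajal body) and 12 Snhg genes (noncoding small nucleolar RNA host genes).

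RNA-seq libraries came from 3 sorted populations of 1 mouse line, a double knock-in with a Venus reporter at Foxa2 (heterozygous) and a Cherry reporter at Sox17 (homozygous), which all samples share. The d0 cells were undifferentiated and negative for both reporters, the d3F cells were sorted on day 3 as Foxa2-Venus-positive and Sox17-Cherry-negative mesendoderm, and the d5FS cells were sorted on day 5 as positive for both reporters. Wnt3a and Activin A drove the differentiation. Each population had 2 independent replicates, so 6 libraries in all, and since all came from 1 line the spread between them does not cover differences between lines. These are bulk samples, in which fewer cells that express a gene and less RNA per cell cannot be told apart.

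Box C/D snoRNAs guide ribose methylation and box H/ACA snoRNAs guide pseudouridylation of ribosomal RNA in the nucleolus, while scaRNAs direct the same modifications of spliceosomal RNAs in Cajal bodies. Each RNA works within a particle of core proteins, among them the methyltransferase fibrillarin (Fbl) for box C/D and the pseudouridine synthase dyskerin (Dkc1) for box H/ACA. In mammals most of these RNAs are cut out of the introns of other genes, often genes for ribosomal proteins or translation factors, and the Snhg genes are known chiefly as carriers of such introns. Pluripotent cells grow fast and are known for large nucleoli and active ribosome production.

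The sequences below were chosen because the results turn on them: 4 box C/D snoRNAs that were counted, 2 box H/ACA snoRNAs, and Snord47 as a typical short box C/D snoRNA that received no read. They are GENCODE M21 transcripts on GRCm38, written 5′ to 3′, and capitals mark the letters found by a search for TGATGA in the first 30 bases and CTGA in the last 20 bases (the box C and box D motifs) or for ACA followed by 3 bases at the end (the box ACA motif). Snord22 lies on the plus strand of chr19:8725866-8725991 within Snhg1. Snord15a (chr7:99482785-99482932) and Snord15b (chr7:99479563-99479707) lie on the minus strand within Rps3, a ribosomal protein gene, and share 101 of 154 aligned positions (65.6%). Snord17 (chr2:144265979-144266216, minus strand) lies in an intron of Snx5. Snora24 (chr3:123507937-123508066, minus strand) lies within Snhg8, Snora70 (chrX:74272484-74272620, plus strand) within the ribosomal protein gene Rpl10, and Snord47 (chr1:161038082-161038158, plus strand) within the noncoding gene Gas5.
Snord22: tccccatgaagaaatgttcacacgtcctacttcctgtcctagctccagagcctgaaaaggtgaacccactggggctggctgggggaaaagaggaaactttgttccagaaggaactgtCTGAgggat
Snord15a: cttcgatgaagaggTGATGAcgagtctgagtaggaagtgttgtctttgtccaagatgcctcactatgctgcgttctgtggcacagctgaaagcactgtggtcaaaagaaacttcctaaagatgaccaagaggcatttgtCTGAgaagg
Snord15b: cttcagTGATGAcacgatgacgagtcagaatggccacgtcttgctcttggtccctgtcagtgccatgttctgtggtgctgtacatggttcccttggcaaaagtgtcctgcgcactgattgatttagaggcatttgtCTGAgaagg
Snord17: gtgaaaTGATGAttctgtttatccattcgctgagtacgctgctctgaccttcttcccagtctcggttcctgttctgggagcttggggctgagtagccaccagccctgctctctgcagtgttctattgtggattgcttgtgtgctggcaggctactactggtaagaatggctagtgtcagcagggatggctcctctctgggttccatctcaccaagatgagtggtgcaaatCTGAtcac
Snora24: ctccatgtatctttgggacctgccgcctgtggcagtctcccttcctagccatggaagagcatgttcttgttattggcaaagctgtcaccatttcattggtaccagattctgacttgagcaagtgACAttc
Snora70: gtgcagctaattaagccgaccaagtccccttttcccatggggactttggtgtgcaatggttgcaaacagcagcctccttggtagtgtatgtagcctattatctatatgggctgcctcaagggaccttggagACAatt
Snord47: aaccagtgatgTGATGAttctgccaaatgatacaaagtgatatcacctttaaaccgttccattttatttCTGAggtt

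In the set as a whole these letters followed the class names. TGATGA was found in the first 30 bases of 47 of 73 Snord transcripts (64.4%) and of 0 of 36 Snora transcripts. CTGA was found in the last 20 bases of 71 of 73 Snord (97.3%) and 4 of 36 Snora transcripts (11.1%). In the last 20 bases of the reverse complement, which lie at the other end of each RNA, it was found in 5.48% and 13.9%. The ACA ending was found in 30 of 36 Snora (83.3%), 0 of 73 Snord and 2 of 9 Scarna transcripts. Snord22 had no TGATGA in its window, and a missing match says only that these letters are not there.

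Which of these RNAs could be counted at all was split sharply by length. Of the 131 genes 50 had at least 1 count in the 6 libraries and 81 had none. The 50 were 29 of 36 Snora genes, 5 of 9 Scarna genes, 12 of 12 Snhg genes and only 4 of 74 Snord genes, namely Snord15a, Snord15b, Snord17 and Snord22. All 78 members listed with fewer than 100 bases, the length of the sequencing reads, had 0 counts, and so had all 1006 genes of that length in the tables. Among longer members, 2 of 3 genes of 100 to 109 bases, 11 of 13 of 110 to 119 bases, 18 of 18 of 120 to 149 bases, 8 of 8 of 150 to 299 bases and 11 of 11 of 300 bases or more had a count. Of the genes outside the set in these length classes, 3 of 96, 0 of 52, 6 of 55, 11 of 44 and 21366 of 22748 did. Most other genes of 100 to 299 bases thus also had no count. Snora35 (119 bases), Snora36b (113 bases) and Snora5c (101 bases) were the 3 members of at least 100 bases without one, and for counting error alone a count of 0 allows up to 3 counts in a library. The median length was 131 bases with a count and 65 bases without. A count of 0 below the read length is therefore no measurement of the RNA, and 70 of 74 Snord genes, Snord47 among them, were not measured in any population.

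**Figure D1:**
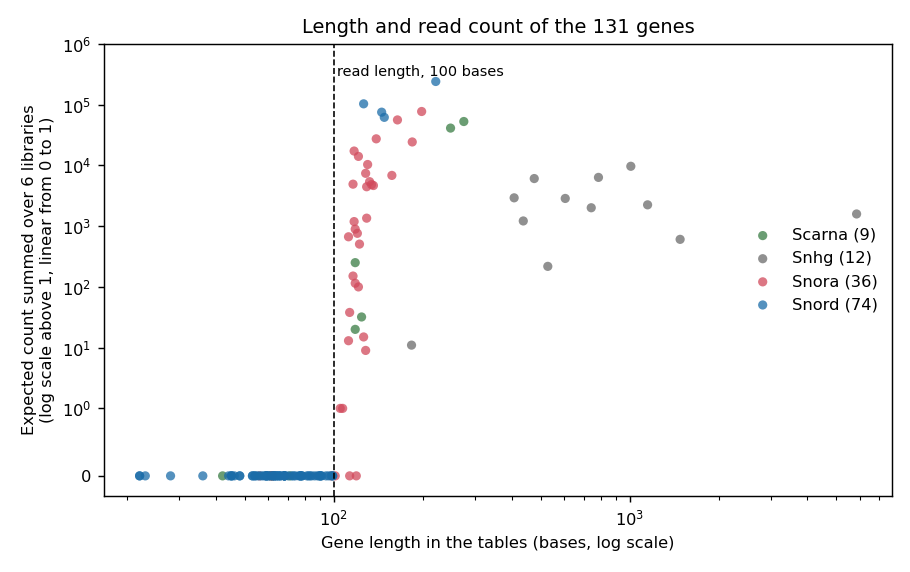
Length of each of the 131 genes in the tables (bases, log scale) against its expected count summed over the 6 libraries (log scale above 1), coloured by class, with the number of genes per class. The dashed line marks the read length of 100 bases: all 78 genes to its left lie at 0, and 50 of the 53 genes to its right have a count.

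The lengths in the tables were often shorter than the annotated RNA. Of 118 snoRNA and scaRNA genes that could be compared, 100 were shorter in the tables than in GENCODE, 11 had the same length and 7 were longer, with a median difference of 12 bases. Snord17 was listed with 221 bases against 238, Snora70 with 129 against 137 and Snord47 with 65 against 77, whereas Snord22 had 126 bases in both. Of 80 genes without a count in this comparison, 16 had a GENCODE transcript of 100 bases or more, 7 of them among 69 Snord genes.

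The 6 libraries held 16457728.93 to 22768686.01 expected counts. Values below are CPM, counts scaled by library size with TMM factors, which are not divided by length, so they compare libraries for 1 gene and not genes with each other. Of 11 marker genes for the populations, Pou5f1 (Oct4), Nanog, Sox2 and Zfp42 fell and 6 of the other 7 rose from d0 to d5FS, and T, a mesendoderm gene, was highest in d3F with 169.0 and 69.07 CPM against at most 19.78 CPM elsewhere. Of 10 fibroblast markers (the stem cells had been grown on feeder cells, which were then depleted), 9 were tested. From d0 to d5FS 5 of them were called higher, against 12.4% of all genes. The summed level of the 10 markers was 106.4 and 141.7 CPM in d0, 481.1 and 1011 CPM in d3F and 1054 and 653.3 CPM in d5FS. Vim made up most of the sums in d0 (81.89 and 113.9 CPM) and d3F (414.4 and 891.8 CPM). In d5FS the largest parts were Acta2 (585.8 and 301.0 CPM), Vim (236.4 and 156.9 CPM) and Col1a2 (109.6 and 156.3 CPM). Lum was at or near 0 in every library, and Thy1, Dcn and S100a4 stayed at or under 3.07 CPM. The part of these markers in the differences below was not tested.

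Most of the counted snoRNAs differed widely in level between the replicates of d0 and of d3F. Snord22 was counted at 287.7 and 1457 CPM in the d0 replicates 1 and 2, at 355.1 and 1159 CPM in d3F and at 883.4 and 1213 CPM in d5FS. The 3 second replicates lay above the 3 first replicates, and the populations overlapped. Snord15a and Snord15b, which are known to guide a ribose methylation of the large ribosomal subunit RNA, had the same order of libraries. Snord15a had 160.5 and 851.7 CPM in d0, 177.0 and 682.5 CPM in d3F and 516.2 and 843.6 CPM in d5FS. Snord15b had 166.9 and 1036 CPM in d0, 208.6 and 829.7 CPM in d3F and 707.1 and 993.7 CPM in d5FS. In log2 CPM over the 6 libraries the members most like Snord22 were Snord15b (Pearson r = 0.995), Snord15a (0.995), Snora70 (0.986), Snora21 (0.982) and Scarna13 (0.981), a description over libraries that share their depth and preparation.

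Snord17, the snoRNA with the most reads, had another order of libraries. It had 1053 and 2320 CPM in d0, 1056 and 1807 CPM in d3F and 3480 and 2807 CPM in d5FS. Both d5FS libraries lay above all d0 and d3F libraries, while d0 and d3F overlapped. Its log2 fold change was 1.14 ± 0.46 (SE, n = 2 per population) between d3F and d5FS and 0.90 ± 0.46 between d0 and d5FS, with adjusted p = 0.244 and 0.185 (quasi-likelihood test of edgeR, Benjamini-Hochberg over 14539 genes). Neither passed the threshold of an adjusted p under 0.05 with an absolute log2 fold change above 1. Without the filter on low counts the d3F to d5FS change was called, at a log2 fold change of 1.11.

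The box H/ACA snoRNAs with the most reads, Snora74a, Snora81, Snora43 and Snora23, were also higher in replicate 2 of d0 and d3F. Snora74a had 305.7 and 1177 CPM in d0, 354.0 and 806.0 CPM in d3F and 679.7 and 616.3 CPM in d5FS. Snora81 had 246.2 and 749.7 CPM in d0, 295.9 and 522.5 CPM in d3F and 589.6 and 454.5 CPM in d5FS. In both genes the order of the replicates was the opposite in d5FS. Snora43 had 154.0 and 366.4 CPM in d0, 178.0 and 271.8 CPM in d3F and 253.0 and 146.2 CPM in d5FS, and Snora23 had 129.7 and 254.9, 164.6 and 214.8, and 300.0 and 163.1 CPM. For these 4 genes, too, all 3 populations overlapped. Snora70, printed above, was at 11.93 and 62.89 CPM in d0, 14.45 and 60.63 CPM in d3F and 31.66 and 48.55 CPM in d5FS.

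Of the scaRNAs, 2 gave most of the reads. Scarna13 had 272.5 and 550.4 CPM in d0, 265.5 and 557.9 CPM in d3F and 497.1 and 550.9 CPM in d5FS. Scarna6 had 237.3 and 429.6 CPM in d0, 203.8 and 365.7 CPM in d3F and 421.8 and 443.8 CPM in d5FS. The highest and lowest libraries of d0 and d3F nearly coincided for Scarna13, whose log2 fold change between d0 and d3F was 0.00 ± 0.45 (SE, n = 2 per population).

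**Figure D2:**
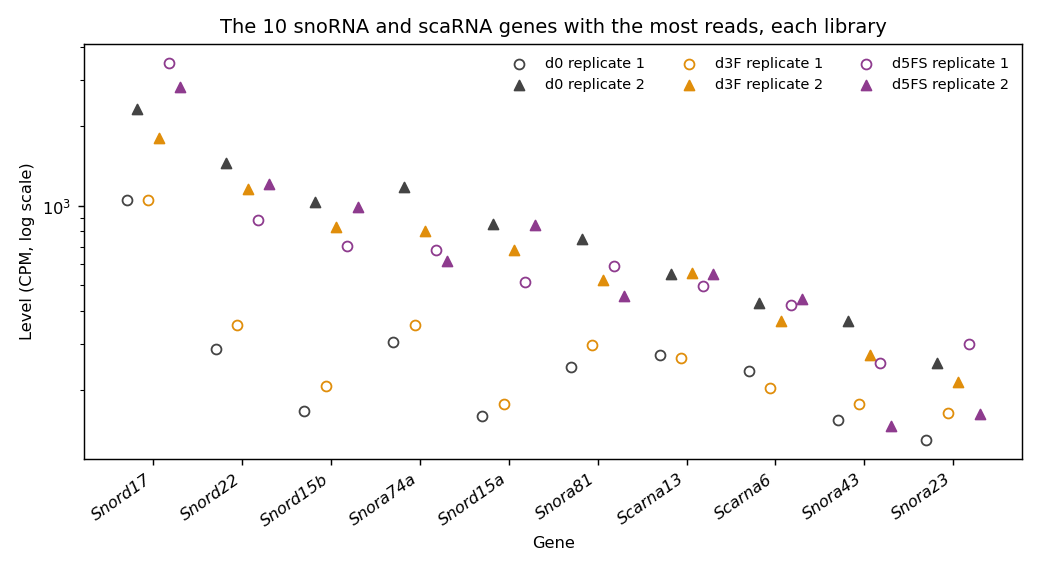
Level in each library (CPM, log scale) of the 10 snoRNA and scaRNA genes with the most reads; colours mark the populations, open circles replicate 1 and filled triangles replicate 2. In d0 and d3F every triangle lies above its circle (Snord22: 1457 against 287.7 CPM in d0), and in d5FS the order of the replicates varies from gene to gene.

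Summed over each class the pattern was the same. The counted Snord genes summed to 1668 and 5664 CPM in d0, 1796 and 4479 CPM in d3F and 5587 and 5858 CPM in d5FS. The Snora genes summed to 1141 and 3913, 1355 and 2778, and 2580 and 2021 CPM, and the Scarna genes to 510.6 and 984.7, 470.4 and 926.9, and 921.2 and 998.2 CPM. The first replicates of d0 and d3F were the 2 lowest libraries in all 3 classes, and d5FS replicate 1 was not among them. Snord17 carried a large share of the Snord sums. Without it they were 615.1 and 3345 CPM in d0, 740.6 and 2671 CPM in d3F and 2107 and 3051 CPM in d5FS, with the same 2 libraries lowest. The Snhg genes summed to 320.8 and 386.0 CPM in d0, 302.5 and 254.5 CPM in d3F and 270.9 and 213.3 CPM in d5FS, and here both d0 libraries lay above the others.

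Gene by gene, 30 snoRNA and scaRNA genes had enough counts to be tested (4 Snord, 23 Snora and 3 Scarna). Replicate 2 exceeded replicate 1 in 30 of 30 genes in d0, with a median log2 ratio of 1.99, in 29 of 30 in d3F (median 1.19) and in 15 of 30 in d5FS (median -0.04). The ratio was above 2-fold in 28, 20 and 2 genes. In a model of population and replicate number, the log2 difference of replicate 2 from replicate 1 had a median of 1.02 over the 30 genes and was positive in 29, against -0.07 over the 11 Snhg genes tested and 0.01 over all genes. It was called for 0 of 41 members and 0 of 14539 genes (0.0%) by edgeR, with a smallest adjusted p of 0.0731 among members. At an unadjusted p under 0.05 there were 17 of 30 snoRNA and scaRNA genes, 0 of 11 Snhg genes and 3519 genes of all. DESeq2's Wald test at these cut-offs called 11 members, all snoRNAs and all higher in replicate 2, edgeR without the filter on low counts called 6, and DESeq2's test for changes beyond 2-fold called 0. The share of all genes called under these settings is not given here, so the counts cannot be read as particular to the members.

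The direction of the change from d0 to d5FS depended on which replicate was read. Same-numbered libraries were set side by side here, although no label says that they were prepared together. Within replicate 1, 30 of 30 snoRNA and scaRNA genes were higher in d5FS than in d0, with a median log2 ratio of 1.24. Within replicate 2, only 4 of 30 were higher and the median was -0.71. So 26 genes moved in opposite directions in the 2 replicates and 4 were higher in both. From d0 to d3F, 24 of 30 were higher in replicate 1 (median 0.25) and 1 of 30 in replicate 2 (median -0.40), and from d3F to d5FS 29 of 30 (median 1.06) and 7 of 30 (median -0.38). With library totals in place of TMM factors the d0 to d5FS counts were 30 and 6, and with DESeq2 size factors 30 and 2. The Snhg genes behaved otherwise: of 11, 5 were lower in both replicates, 3 higher in both and 3 moved in opposite directions.

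**Figure D3:**
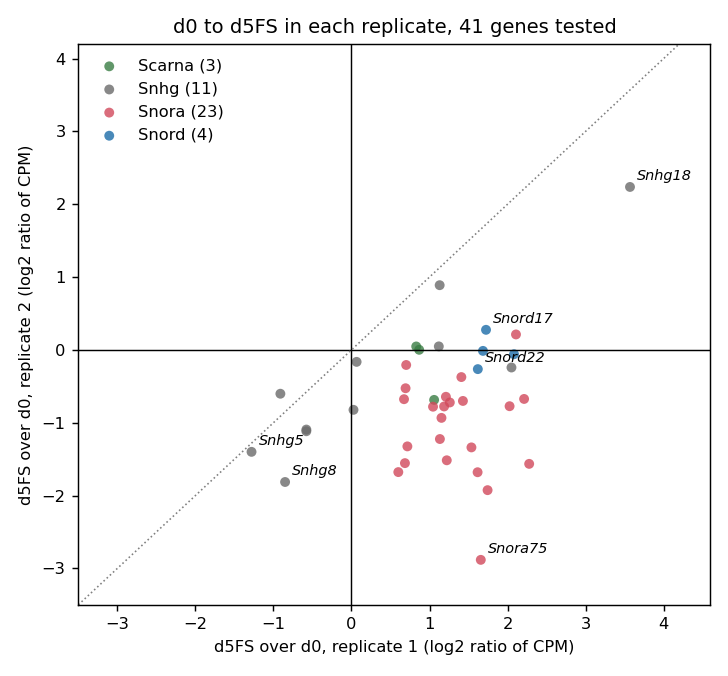
Log2 ratio of CPM in d5FS over d0 within replicate 1 (horizontal axis) and within replicate 2 (vertical axis) for the 41 genes tested, coloured by class; the dotted line marks equal ratios. The 30 snoRNA and scaRNA genes lie right of 0 and 26 of them below 0, whereas Snhg18 lies far above 0 and Snhg5 and Snhg8 below 0 on both axes.

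Tested over populations, none of the 30 snoRNA and scaRNA genes was called. From d0 to d3F edgeR called 0 of 41 members, against 4.7% of all genes tested. At an unadjusted p under 0.05 there was 1 member, the Snhg gene Snhg18, beside 2994 of all 14539 genes. From d3F to d5FS edgeR called 0 of 41, against 1.54% of all genes. Here 5 members had an unadjusted p under 0.05 (Snord17 and 4 Snhg genes), beside 2635 of all 14539 genes. From d0 to d5FS edgeR called 3 of 41, against 22.8% of all genes, and all 3 were Snhg genes. DESeq2 with the same cut-offs called 0 members from d0 to d3F and 1, Snhg18, from d3F to d5FS, with no share of all genes given beside them. The median log2 fold change of the 30 genes was -0.21, 0.19 and 0.02 in the 3 comparisons, beside -0.01, 0.01 and 0.02 over all genes. The last of these medians changed sign with the scaling: it was -0.02 with DESeq2 size factors and 0.23 with library totals, where the median of all genes stood at 0.13. The standard errors from d0 to d5FS ran from 0.40 to 1.17 with a median of 0.67 (log2 scale), so a change of 2-fold in a typical member was not detectable here. With the replicate number as a block the 3 Snhg genes remained the members called, and the calls over all genes numbered 1320, 918 and 4296 against 683, 224 and 3313 without it.

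Some other short noncoding RNAs had the same lowest libraries as the snoRNAs. Rmrp, the RNA of RNase MRP, took 2.37 and 5.73% of the counts in d0, 2.36 and 4.56% of them in d3F, and 4.03 and 4.63% of them in d5FS. Rpph1, the RNA of RNase P, took 1.62 and 4.58%, 1.76 and 3.01%, and 2.41 and 2.67%. The snoRNA and scaRNA genes together took 0.343 and 0.926%, 0.392 and 0.783%, and 0.973 and 0.882%. In all 3 the first replicates of d0 and d3F were lowest. Rn45s, the ribosomal precursor RNA, took 6.20 and 4.26%, 6.09 and 6.001%, and 4.41 and 4.698%. Of 7 short noncoding RNAs outside the set that were tested, the median difference of replicate 2 from replicate 1 was 1.23 on the log2 scale, and 1 was called from d0 to d5FS. Like Rmrp and Rpph1, Rnu12, Vaultrc5 and Rprl3 were lowest in the first replicates of d0 and d3F. The other two differed. Rprl2, with at most 13 counts in a library, was lowest in the first replicates of d3F and d5FS. Terc, the telomerase RNA, which also carries a box H/ACA domain, had 144.4 and 278.6 CPM in d0, 107.1 and 106.3 CPM in d3F, and 99.11 and 68.27 CPM in d5FS, where it was lowest, and fell by 1.34 (log2) from d0 to d5FS (adjusted p = 0.0367, edgeR).

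Fragment length differed along the same line. The mean fragment length implied by the deposited effective lengths of 5344 genes was 213.2 and 196.1 bases in d0, 205.2 and 197.0 bases in d3F and 199.9 and 193.2 bases in d5FS, longest in the first replicates of d0 and d3F. The effective length is the number of positions at which a fragment can start, and for RNAs shorter than most fragments it is small and moves with the fragment length. For Snord15a it was 2.71 and 5.03 bases in d0, 3.42 and 5.04 bases in d3F and 4.0 and 5.46 bases in d5FS. It was 0 in at least 1 library for 19 of the 30 genes and in every library for 12, so values per length could not be formed for them. In d0 the median log2 ratio of replicate 2 to replicate 1 was 2.15 for the 16 genes under 130 bases, 2.01 for the 11 genes of 130 to 199 bases and 1.01 for the 3 genes of 200 bases or more. In d3F these medians were 1.48, 1.16 and 0.84. In d5FS they were 0.18, -0.38 and 0.07, without a steady fall over the 3 length classes. Over the 30 genes the Spearman correlation of this ratio with length was -0.295 in d0, -0.248 in d3F and -0.261 in d5FS. The Pearson correlation with log2 length was -0.517, -0.281 and 0.015. With effective length as an offset, which 11 of the 30 genes allowed, the median replicate difference was 0.42 against 0.75 without it, it was positive in 9 of 11, and none of the 22 members it covered gained or lost a call. The study's library list names 1 library of each population mRNA and the other totRNA, without saying which replicate is which. The parts of fragment length and of RNA preparation in the replicate difference were not tested.

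**Figure D4:**
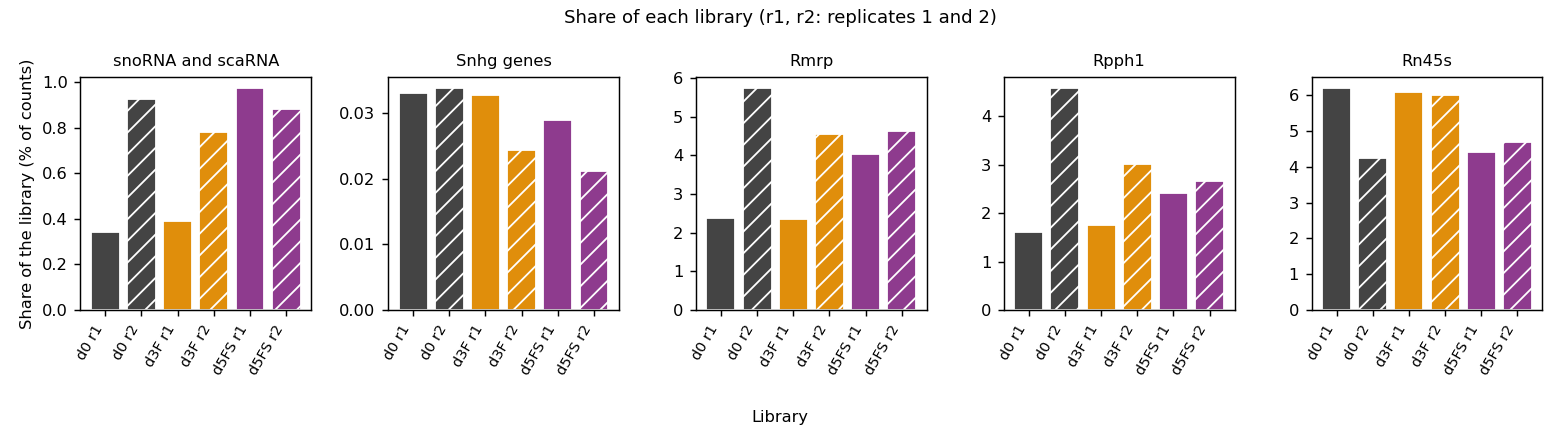
Share of each library's counts (%) taken by the snoRNA and scaRNA genes, the Snhg genes, Rmrp, Rpph1 and Rn45s; colours mark the populations and hatched bars replicate 2, and each panel has its own scale from 0. The d0 and d3F first replicates are lowest for the snoRNA and scaRNA genes (0.343 and 0.392%), Rmrp and Rpph1, but not for the Snhg genes or Rn45s.

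The Snhg genes tested, all listed with 407 bases or more, held every population change among members that passed the test. Snhg18, which carries Snord123 in an intron, had 1.01 and 2.15 CPM in d0, 3.09 and 3.94 CPM in d3F and 11.97 and 10.15 CPM in d5FS. The 3 populations did not overlap and rose in that order. Between d0 and d5FS its log2 fold change was 2.81 ± 0.51 (SE, n = 2 per population; adjusted p = 0.0083 in edgeR's quasi-likelihood test), and 12.4% of all genes were called higher in this comparison. The steps from d0 to d3F (1.15 ± 0.49, adjusted p = 0.230) and from d3F to d5FS (1.65 ± 0.48, adjusted p = 0.127) did not pass. Without d5FS replicate 1 the d0 to d5FS change was 2.68 with an adjusted p of 0.0501, and the call was lost. From d3F to d5FS it was called without the filter on low counts (1.63) and by DESeq2 (1.66).

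Snhg5 and Snhg8 fell from d0 to d5FS, where 10.4% of all genes were called lower. Snhg5, the Snhg gene with the most reads, had 110.5 and 107.3 CPM in d0, 92.69 and 64.83 CPM in d3F and 45.50 and 40.64 CPM in d5FS, again with no overlap between populations. Between d0 and d5FS its log2 fold change was -1.34 ± 0.29 (SE, n = 2 per population; adjusted p = 0.016, edgeR). The call was lost without d5FS replicate 1 (-1.43, adjusted p = 0.0747), without d5FS replicate 2 (-1.25, adjusted p = 0.0802) and in DESeq2's test for changes beyond 2-fold (-1.37). Snhg8 had 59.43 and 84.04 CPM in d0, 59.39 and 45.61 CPM in d3F and 32.95 and 23.90 CPM in d5FS, so that d5FS lay below both other populations while these nearly met. Its log2 fold change was -1.34 ± 0.33 (adjusted p = 0.0244, edgeR), and the call was lost without d0 replicate 2 (-1.05, adjusted p = 0.103), without d5FS replicate 1 (-1.59, adjusted p = 0.0706), without d5FS replicate 2 (-1.11, adjusted p = 0.117) and in DESeq2's test for changes beyond 2-fold (-1.37). The table length of Snhg8, 785 bases, is that of its unspliced span, which contains Snora24, and the counts of both were not whole numbers in 6 of 6 libraries, so reads were divided between them.

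The other 8 Snhg genes tested did not pass in any comparison. Snhg1, the host of Snord22, had 50.09 and 57.82 CPM in d0, 46.49 and 42.80 CPM in d3F and 52.42 and 51.59 CPM in d5FS. The d0 and d5FS libraries overlapped and d3F lay below both. Between d0 and d5FS its log2 fold change was -0.05 ± 0.27 (SE, n = 2 per population). Snhg12, which carries Snora16a, Snora44, Snora61 and Snord99, had 24.74 and 40.03, 19.00 and 21.98, and 16.57 and 18.46 CPM, with a log2 fold change of -0.89 ± 0.34 (adjusted p = 0.092, edgeR) that passed, at -1.21, when d0 replicate 1 was left out. Snhg7 had 17.19 and 27.53, 13.97 and 15.66, and 11.52 and 12.90 CPM (-0.87 ± 0.35). For both genes the d5FS libraries lay below both d0 libraries. Snhg3 had 11.84 and 10.35, 13.03 and 9.90, and 6.30 and 6.82 CPM, lower in both d5FS libraries than in any other, with a log2 fold change of -0.76 ± 0.36. Snhg4 had 18.33 and 18.97, 22.78 and 19.30, and 18.66 and 10.72 CPM, with both d3F libraries above the d0 and d5FS libraries, which overlapped.

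Mean levels above d0 were seen in d5FS for 3 more Snhg genes without passing the test. Snhg6 had 18.90 and 25.78 CPM in d0, 18.31 and 17.99 CPM in d3F and 41.07 and 26.65 CPM in d5FS. Snhg11 had 7.59 and 10.30, 12.67 and 9.95, and 31.43 and 8.71 CPM, so that its higher mean in d5FS came from replicate 1. Its log2 fold change of 1.17 ± 0.56 (adjusted p = 0.163, edgeR) passed without the filter on low counts (1.18) and without d5FS replicate 2 (1.82). Snhg10, the host of Scarna13, had 1.14 and 1.49, 1.02 and 2.32, and 2.496 and 2.75 CPM. Snhg9 had 11 counts in all and was not tested.

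**Figure D5:**
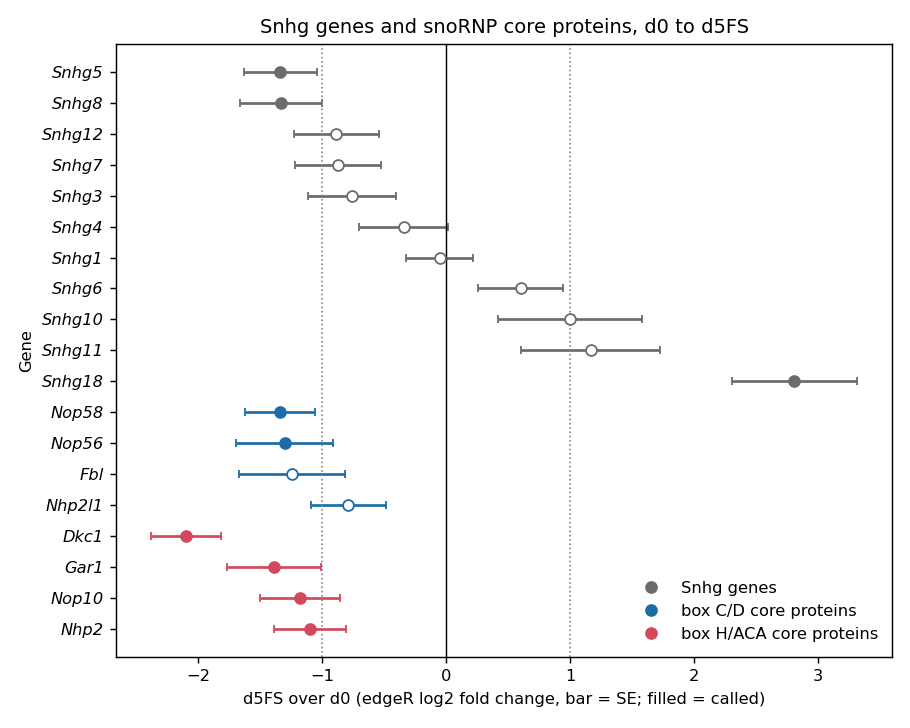
Log2 fold change from d0 to d5FS (edgeR, bars are SE, n = 2 per population) of the 11 Snhg genes tested and of the genes for core proteins of box C/D and box H/ACA particles; filled points passed the test and dotted lines mark 2-fold. Snhg18 lies at 2.81, Snhg5 and Snhg8 at -1.34, and all 8 core protein genes lie below 0 with Dkc1 lowest at -2.10.

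A host was annotated on the same strand for 100 of the 119 snoRNA and scaRNA genes, 78 of them in protein-coding genes, in 74 host genes in all, and 58 lay in introns while 42 overlapped an exon of some annotated transcript. Hosts were counted even where the snoRNA, as listed, was too short to be. Outside the Snhg genes, 66 of 67 hosts were tested: 0 were called in either single step, and over the whole course from d0 to d5FS 9 were called lower and 1 higher, against 10.4% lower and 12.4% higher of all genes. The 22 ribosomal protein hosts held none of the calls, with a median log2 fold change of 0.11 from d0 to d5FS. Those with the largest changes were Ncl (-1.89), Dancr (-1.76), Tsr1 (-1.62), Nop58 (-1.34) and Dcaf5 (1.32). Ncl (nucleolin), Tsr1 (a factor of small subunit maturation) and Nop58 (a box C/D core protein) are themselves part of ribosome production. The number lower was 2 without d5FS replicate 1, 3 without d0 replicate 2 or d5FS replicate 2, 5 without either d3F library and 0 in DESeq2's test for changes beyond 2-fold.

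Where both the RNA and its host were tested, they could be set side by side in 29 members and 26 hosts. Snora74a was placed in Snhg4, and Snora17 and Snora43 in Snhg7, by the RefSeq span alone, for which no strand was given. Of the 26 hosts 5 were called lower from d0 to d5FS and none higher, against 10.4% lower and 12.4% higher of all genes. None of the snoRNAs within these 5 was called. Dancr had 25.49 and 59.87 CPM in d0, 17.10 and 20.28 CPM in d3F and 13.23 and 12.05 CPM in d5FS (log2 fold change -1.76, adjusted p = 0.0233, edgeR). Snora26 within it had 47.05 and 277.7, 49.28 and 139.7, and 109.6 and 97.09 CPM (-0.65), and both genes shared reads, with counts that were not whole in 6 of 6 libraries. Ncl had 936.8 and 670.7, 690.9 and 383.6, and 266.5 and 167.7 CPM (adjusted p = 0.0160, edgeR). Snora75 within it, with at most 39 counts in a library, had 0.70 and 1.69, 1.06 and 1.67, and 2.21 and 0.23 CPM. Its log2 ratio of d5FS to d0 was 1.66 within replicate 1 and -2.88 within replicate 2. Kansl2 fell by 1.31 beside -0.16 for Snora34, Haus6 by 1.14 beside -0.22 for Scarna8, and Snhg8 by 1.34 beside -0.26 for Snora24. These differences between host and snoRNA were not tested. The call of Dancr was lost without d0 replicate 2 (-1.003) or either d5FS library (-1.83 and -1.68), and that of Ncl without d5FS replicate 2 (-1.58).

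The replicate difference was smaller in the hosts than in the RNAs they carry. Over the 26 hosts the median log2 difference of replicate 2 from replicate 1 was 0.16, against 1.03 over the 29 members within them. Snord22 gave 5.74 times the CPM of Snhg1 in d0 replicate 1 and 25.2 times in replicate 2, 7.64 and 27.1 times in d3F, and 16.9 and 23.5 times in d5FS. Snord15a gave 0.0732 and 0.216 times the CPM of Rps3 in d0, 0.0892 and 0.201 times in d3F, and 0.172 and 0.242 times in d5FS. The first replicates of d0 and d3F were again the lowest for both ratios. A list of further noncoding hosts and genes of imprinted loci outside the naming rule had 10 genes tested, of which Snrpn, Snurf and Ube3a code for proteins. The noncoding Dancr and the protein-coding Snrpn (-1.59) were called lower from d0 to d5FS, against 10.4% of all genes, while Gas5, the host of Snord47, had 218.6 and 279.9 CPM in d0, 247.3 and 261.0 CPM in d3F and 209.7 and 149.3 CPM in d5FS (-0.47, adjusted p = 0.287, edgeR). Without either d5FS library none of the 10 was called, and without d0 replicate 2 or with library totals 1 was.

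Transcripts of most core proteins of the snoRNA particles were lower in d5FS than in d0. Of the 4 genes for box H/ACA core proteins all 4 were called lower from d0 to d5FS, against 10.4% of all genes. Of the 4 for box C/D core proteins 2 were called lower, and the other 2 fell without passing. The median log2 fold changes were -1.28 and -1.27, beside 0.02 over all genes. Dkc1 had 201.4 and 209.8 CPM in d0, 120.5 and 111.3 CPM in d3F and 43.06 and 53.08 CPM in d5FS, with no overlap between the populations. Between d0 and d5FS its log2 fold change was -2.10 (adjusted p = 0.0033, edgeR), and it was called under all 16 alternative settings. Gar1 (-1.39), Nop10 (-1.18) and Nhp2 (-1.10) also passed. Nop58 had 279.8 and 343.6, 195.6 and 194.0, and 113.9 and 131.9 CPM (-1.34, adjusted p = 0.0142, edgeR) and Nop56 had 334.2 and 449.3, 257.9 and 290.0, and 104.8 and 212.6 CPM (-1.30, adjusted p = 0.0434). Fbl, with 121.8 and 195.8, 127.6 and 147.1, and 41.02 and 93.14 CPM, did not pass (-1.24, adjusted p = 0.0679), nor did Nhp2l1 (-0.79). No core protein gene passed from d0 to d3F or from d3F to d5FS. The calls of Gar1, Nop10, Nhp2 and Nop56 were lost without d0 replicate 2, without d5FS replicate 1 and without either d3F library. That of Nop58 was lost without d0 replicate 2 or either d5FS library. The d3F libraries are not part of this comparison, and without either of them the log2 fold changes hardly moved. They were -1.395 and -1.384 for Gar1, -1.185 and -1.173 for Nop10, and -1.106 and -1.095 for Nhp2. A call lost there does not mean a smaller change. Without d5FS replicate 1 the fold changes were smaller, at -1.031 for Gar1, -0.9438 for Nop10, -0.897 for Nhp2 and -0.8872 for Nop56.

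Transcripts of factors that assemble these particles, or work beside them in the nucleolus, fell in part. These lists, like those of the core proteins, were chosen with earlier results of these data known, so their counts are a description. Of 20 assembly, maturation and Cajal body factors 5 were called lower from d0 to d5FS and 0 higher (median -0.96), against 10.4% lower and 12.4% higher of all genes. They were Tcof1 (treacle, -2.09), Znhit6 (an assembly factor of box C/D particles, -1.97), Nolc1 (a nucleolar and Cajal body phosphoprotein, -1.73), Dbr1 (the lariat debranching enzyme, which frees intronic snoRNAs, -1.58) and Ruvbl1 (an ATPase of the assembly chaperone, -1.53). Of 28 nucleolar and RNA polymerase I factors 14 were called lower and 0 higher (median -1.11) against the same shares, with Bop1 (-2.23), Polr1b (-1.91), Ncl (-1.89), Rrp9 (-1.85) and Utp20 (-1.79) the largest. Tcof1 had 113.7 and 148.5 CPM in d0, 81.69 and 71.90 CPM in d3F and 24.00 and 37.54 CPM in d5FS, and it and Bop1 were called under all 16 alternative settings. With the replicate block (4296 calls over all genes in either direction, against 3313 without it) 10 of the 20 assembly factors were called lower. Without d5FS replicate 1, 1 of the 20 and 4 of the 28 were, without d0 replicate 1, 8 of the 20, and without d0 replicate 2 or d5FS replicate 2, 9 of the 28.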

How the data were processed

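RNA-seq was analysed for d0, d3F and d5FS cells, 2 replicates each, grouped by their labels. According to the study's methods, ribosomal RNA was depleted from total RNA, 100-base paired ends were aligned to mm10 with STAR, and RSEM tables were made; versions, annotation release and use of strand were not given in the sources used here. The expected counts the authors deposited are RSEM estimates of fragment numbers, without normalization; they were rounded to whole numbers for tests. The TPM values the authors deposited are divided by effective length, which is 0 for many snoRNAs, and were not used. The deposited lengths and effective lengths are in bases.

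Genes were filtered with filterByExpr (14539 kept), scaled by TMM and fitted with a mean per population in edgeR 4.0.16 (quasi-likelihood F test, R 4.3.3, 3 residual degrees of freedom, prior count 0.125). Calls needed a Benjamini-Hochberg adjusted p under 0.05 over all genes and an absolute log2 fold change above 1. An SE is the absolute log2 fold change over the square root of F. With 2 against 2 samples an exact permutation test cannot go below p = 0.33, so none was run. Counts are of reads without molecular identifiers. A replicate comparison used population and replicate number as terms. Same-numbered samples deviated together (correlations 0.314, 0.324 and 0.278 over genes), so the numbers were taken as pairing, and a fit with the replicate block was made. No label says that same-numbered samples were collected or prepared together. Replicates differed by far more than counting noise (chi-square per degree of freedom 190.4, 87.92 and 85.04).

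On simulated data for d0 to d5FS (14282 genes), the fit recovered 59% of genes with a simulated log2 fold change of 2 and 95% of genes with one of 4, with 7 false calls among 161. Named genes were the called members, the 10 snoRNA or scaRNA and 10 Snhg genes with the highest mean CPM, Snord22 with the 5 members most like it, and up to 5 called genes per list; other members are named to describe hosts, sequences or detection. Members and lists were chosen with earlier results of these data known. Alternatives were DESeq2 1.42.0 size factors and Wald tests, library totals, other count filters, the replicate block, fits of 2 groups, and leaving out each sample; the effective-length offset and the alternatives for the gene lists were chosen after seeing the data. Positions and hosts are from RefSeq and GENCODE M21 (GRCm38); 130 members matched RefSeq and 128 GENCODE. Motifs were searched as exact strings, and Snord15a and Snord15b were aligned with Biopython 1.88.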

Additional observations from a re-analysis of the deposited data

How the results depend on the processing

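With all members, 0 were called from d0 to d3F under every alternative run. From d3F to d5FS, 2 members were called higher without a filter on low counts (Snhg18 and Snord17) and 1 by the DESeq2 Wald test. From d0 to d5FS, 2 were called higher without the filter (Snhg11 and Snhg18). The share of all genes called without the filter, by DESeq2 tests, in fits of 2 groups or without 1 library is not given here. Counts of members and of lists under those settings therefore cannot be read as particular to them. Leaving out 1 library gave 0 to 2 members higher and 0 to 3 lower from d0 to d5FS, and DESeq2's test for changes beyond 2-fold gave 0 lower. Replicate 2 against replicate 1 gave 6 members higher without the filter and 11 by the DESeq2 Wald test, with no share of all genes given beside them. Same-numbered samples were taken as pairs because they deviated together, and no label states such a pairing. The replicate block left the member calls at 0, 0, 1 higher and 2 lower and changed no other call of a member. Among gene lists from d0 to d5FS, the same DESeq2 test called lower 0 box C/D core proteins, 1 box H/ACA core protein, 1 assembly factor, 1 nucleolar factor, 0 further hosts (the list with Dancr and Snrpn) and 0 annotated hosts; a fit of only the 2 groups called 1 core protein of each kind; library totals called 1 further host; and 10 assembly factors were called by the DESeq2 Wald test, without the filter, with the replicate block, and with the offset and the block. Leaving out 1 library gave 0 to 3 box C/D and 1 to 3 box H/ACA core proteins, 1 to 8 assembly factors, 4 to 13 nucleolar factors, 0 to 2 further hosts and 2 to 9 annotated hosts. Mean summed CPM fell to 1980, 1706 and 2579 for Snord in d0, d3F and d5FS without Snord17 (from 3666, 3137 and 5722), to 1652 for Snora in d5FS without Snora74a, to 336.2, 287.0 and 435.7 for Scarna without Scarna13 and to 244.5, 199.7 and 199.0 for Snhg without Snhg5, since these sums lose their largest member. Scaling by library totals moved the median log2 fold change of all genes to 0.13 (from 0.02) for d0 to d5FS and to -0.16 (from 0.01) between replicates, where the calls over all genes from d0 to d5FS were 1834 higher and 1154 lower against 1800 and 1513. Over named members no called direction reversed; 8 calls of members were lost and 6 gained, and 58 values changed sign without being called on either side. Where not stated, the cause of a change was not tested. Of the 81 members without a count, 78 were listed with fewer bases than a read, which limits them whatever the depth. For some of them the annotated RNA was longer than the reads (Scarna2 with 414 bases in GENCODE against 61 listed). For the other 3 members, listed with at least 100 bases, the part of depth was not tested.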
